A study of Arabidopsis thaliana with 12 samples.

Results

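Leaf transcripts of the Arabidopsis line ape2 were compared with those of its wild type Ws-2 in the condition called L. The comparison takes the 3 arrays titled with the codes for ape2 in L and the 3 arrays titled with the codes for Ws-2 in L, which are 6 of the 12 arrays of the series, and covers every probe set. Ws-2 is a natural accession. The line ape2 is 1 line that carries a T-DNA insertion in the Ws-2 background, and the title of the series describes it as a TPT mutant. The tissue was the unshaded, mature leaves of the rosette at developmental stage 3.7, and each array received total RNA labelled with biotin. The other 6 arrays hold the same genotypes in a condition called H. What L and H stand for, how the plants were grown and whether any were pooled is not in the labels, so both letters are used as names. Nothing in the labels says that the 3 arrays of a group came from separate plants, so they could be technical repeats. A p-value here reflects the spread within groups of 3 such samples, estimated over the L and H arrays together.

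TPT sits in the inner envelope membrane of the chloroplast and exchanges triose phosphates for phosphate. In the light this sends the products of carbon fixation to the cytosol for sucrose synthesis. Carbon that is not exported this way can be stored in the chloroplast as starch, which is later broken down and exported as maltose and glucose. Sugars in turn repress or induce many leaf genes, in part through the energy-sensing kinase SnRK1.

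The deposited values are MAS5 signals, a linear brightness for each probe set. Differences are given on the scale of log2(signal + 10), on which the change of a dim transcript is understated. A probe set is called when its limma adjusted p is under 0.05 in a fit over all 12 arrays. Median signals ranged from 36.5 to 40.4 over the arrays, and 63.9% to 67.8% of an array's probe sets reached a signal of 20. The array ape2 L 2 stood farthest out on the leading component of variation within groups, at 20.4, and had the lowest array weight, at 0.62. The other arrays ranged from -12.4 to 17.0 on this component, and the value of 17.0 was that of ape2 H 2.

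Over the whole array, 1576 of the 16121 probe sets tested were called between ape2 L and Ws-2 L, which is 9.78%. Of these, 805 were higher in ape2 (4.99%) and 771 were lower (4.78%). Most changes were small. The median absolute log2 change of the called probe sets was 0.50, with 79 rises and 27 falls of at least 2-fold and 3 rises and 3 falls of at least 4-fold. For 1559 of the called probe sets the Ws-2 L and ape2 L values did not overlap, as was true of 26.4% of all those tested. Leaving out Ws-2 L 2 or Ws-2 L 3 left 1030 and 1046 calls. Of the 1576 calls, 757 passed without each array in turn and under every alternative setting that tested them. Of these, 349 have 1 gene named.

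Gene names were available for part of the array. Of the called probe sets, 743 have 1 gene named in the annotation used here (391 higher and 352 lower), 32 have several, and 801 have none. Among the 1214 tested probe sets whose gene has a symbol, 48 were higher and 78 lower in ape2. Among all 8925 genes tested, with 1 probe set each, 4.32% were higher and 3.93% lower, and the median log2 change was 0.01. Of these genes 4661 had positive and 4264 had negative changes. The counts of list members given below are to be read against these shares. Lists drawn by gene symbol hold only genes with a symbol, and belong beside the 48 rises and 78 falls of the 1214.

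**Figure D1:**
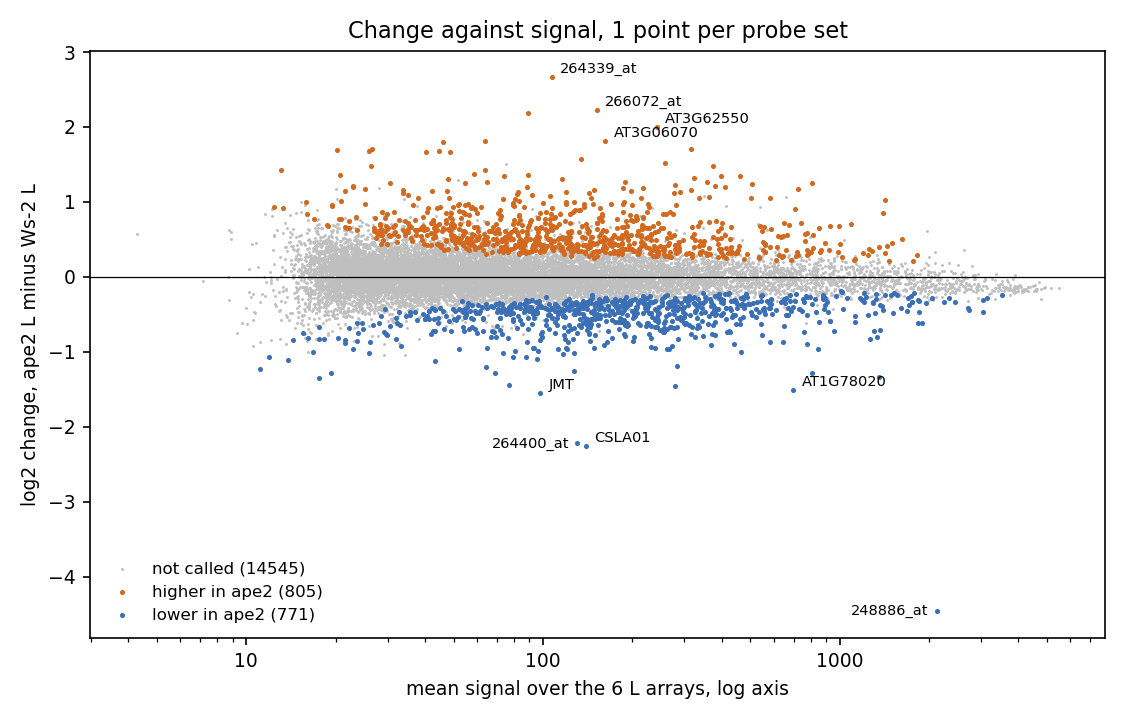
Log2 change between ape2 L and Ws-2 L (y axis) against the mean signal of the 6 L arrays on a log axis (x axis), with 1 point for each of 16121 probe sets. The 805 called rises and 771 called falls are coloured, and the probe set 248886_at lies alone at -4.46.

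TPT itself has no probe set named for it in this annotation, so the label ape2 was not checked on the transcript of its own gene. Whether a probe set without a named gene reads TPT was not determined. The only probe set on the list of plastid envelope translocators belongs to AT5G17630. Its signal was 317, 283 and 280.4 on the Ws-2 L arrays and 314, 282 and 299.7 on the ape2 L arrays, and these ranges overlapped. The log2 change was 0.02 ± 0.08 (SE, adjusted p = 0.896).

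The largest difference of all was the fall of 248886_at, a probe set without a named gene. Its signal was 3730.2, 3950.4 and 4567 in Ws-2 L and 180.1, 172 and 173 in ape2 L. All 3 ape2 arrays were far below all 3 Ws-2 arrays, and the log2 change was -4.46 ± 0.09 (adjusted p = 1.81e-14). In condition H the change of this probe set was -4.44 ± 0.09.

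Other probe sets without a gene named here also changed strongly. The signal of 264339_at rose from 17.4, 21.5 and 27.4 in Ws-2 L to 204, 194 and 177 in ape2 L, by 2.66 ± 0.14 on the log2 scale (adjusted p = 1.52e-08). The probe set 266072_at rose from 46.9 ± 1.85 to 257 ± 8.39 (SD, n = 3), by 2.23 ± 0.09. The probe set 264400_at fell from 221 ± 14.9 to 40.2 ± 10.6, a change of -2.22 ± 0.12.

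The largest named rises and falls were picked only from called genes whose L groups do not overlap, so that separation was set by the choice. The largest named falls included genes of cell wall polysaccharides and of jasmonate. CSLA01 (AT4G16590), a member of the cellulose synthase-like family A whose enzymes make mannan backbones, had signals of 173, 276 and 264 in Ws-2 L and 47.0, 47.9 and 30 in ape2 L. The lowest Ws-2 array was well above the highest ape2 array, and the log2 change was -2.26 ± 0.19 (adjusted p = 1.27e-05). JMT (AT1G19640), which methylates jasmonic acid, had 154, 145 and 153 in Ws-2 L and 40.2, 49.5 and 45.5 in ape2 L. The 3 arrays of each genotype lay close together and apart from the other genotype, with a change of -1.55 ± 0.11 (adjusted p = 3.38e-07). TBL26 (AT4G01080) belongs to the TRICHOME BIREFRINGENCE-LIKE family, whose characterised members add acetyl groups to wall polysaccharides. It is a bright transcript, at 1799.6, 1950.1 and 2087 in Ws-2 L and 746, 794 and 748 in ape2 L, and fell by 1.34 ± 0.07 (adjusted p = 1.52e-08).

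Another bright transcript, AT1G78020, had signals of 996, 985 and 1137 in Ws-2 L and 339, 372 and 360.5 in ape2 L. The gap between the genotypes was far wider than the spread within either, with a log2 change of -1.51 ± 0.07 (adjusted p = 3.75e-09). AT2G27420 gave 1071, 1138 and 1239.6 in Ws-2 L and 474, 480.2 and 449 in ape2 L, a change of -1.28 ± 0.08. TINY2 (AT5G11590), an AP2/ERF transcription factor, gave 156, 144 and 190.3 and 79.8, 71.2 and 84.1 in the same order, a change of -0.96 ± 0.11 (adjusted p = 4.18e-05). The other large falls, AT3G14200, AT4G27652, AT1G22160, AT2G39710 and AT1G57590, ranged from -1.44 to -0.99. HOS3-1 also stood among the 12 largest falls at -1.01 ± 0.28, but its call was lost on leaving out any array other than ape2 L 1 or 3 (adjusted p then up to 0.125), and its change was -0.58 without ape2 L 3.

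The largest named rises were mostly genes known here by locus only. AT3G62550 had signals of 90.9, 75.6 and 107 in Ws-2 L and 444, 376 and 359 in ape2 L. Every ape2 array was more than 3 times the brightest Ws-2 array, and the log2 change was 2.0 ± 0.13 (adjusted p = 1.28e-07). AT3G06070 had 67.7, 55.0 and 76.8 in Ws-2 L and 252, 242 and 281 in ape2 L, a change of 1.82 ± 0.13 (adjusted p = 4.68e-07). AT1G55960 had 254, 264 and 252 and 685, 694 and 618 in the same order, a change of 1.34 ± 0.09. These 3 genes had tight groups on both sides. AT5G24210 was more scattered in Ws-2 L, at 88.1, 38.9 and 65.7, against 181, 226 and 206 in ape2 L, and its change of 1.58 ± 0.32 carried a larger error (adjusted p = 0.0107).

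ATG8E (AT2G45170), a ubiquitin-like protein that is attached to the membrane of forming autophagosomes, rose from 31.2, 33.2 and 37.3 in Ws-2 L to 89.3, 95.6 and 102 in ape2 L. The log2 change was 1.27 ± 0.12 (adjusted p = 6.36e-06). The defensin gene PDF1.2 (AT5G44420), which responds to jasmonate and ethylene, rose from 139.7, 114 and 128 to 357, 471 and 333, by 1.52 ± 0.14 (adjusted p = 8.13e-06), and the probe set of its close relative PDF1.2b by 1.34 ± 0.14. The 2 genes are near-identical copies and their probe sets may read each other, so they are not separate evidence. AT5G48490, AT1G23390, AT5G56100 and AT3G62950 rose by 1.48, 1.31, 1.27 and 1.25. AT5G03350 was also among the 12 largest rises, at 1.70 ± 0.44, and its call was lost on leaving out any array other than Ws-2 H 1 or 2 or ape2 H 2 (adjusted p then up to 0.138).

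**Figure D2:**
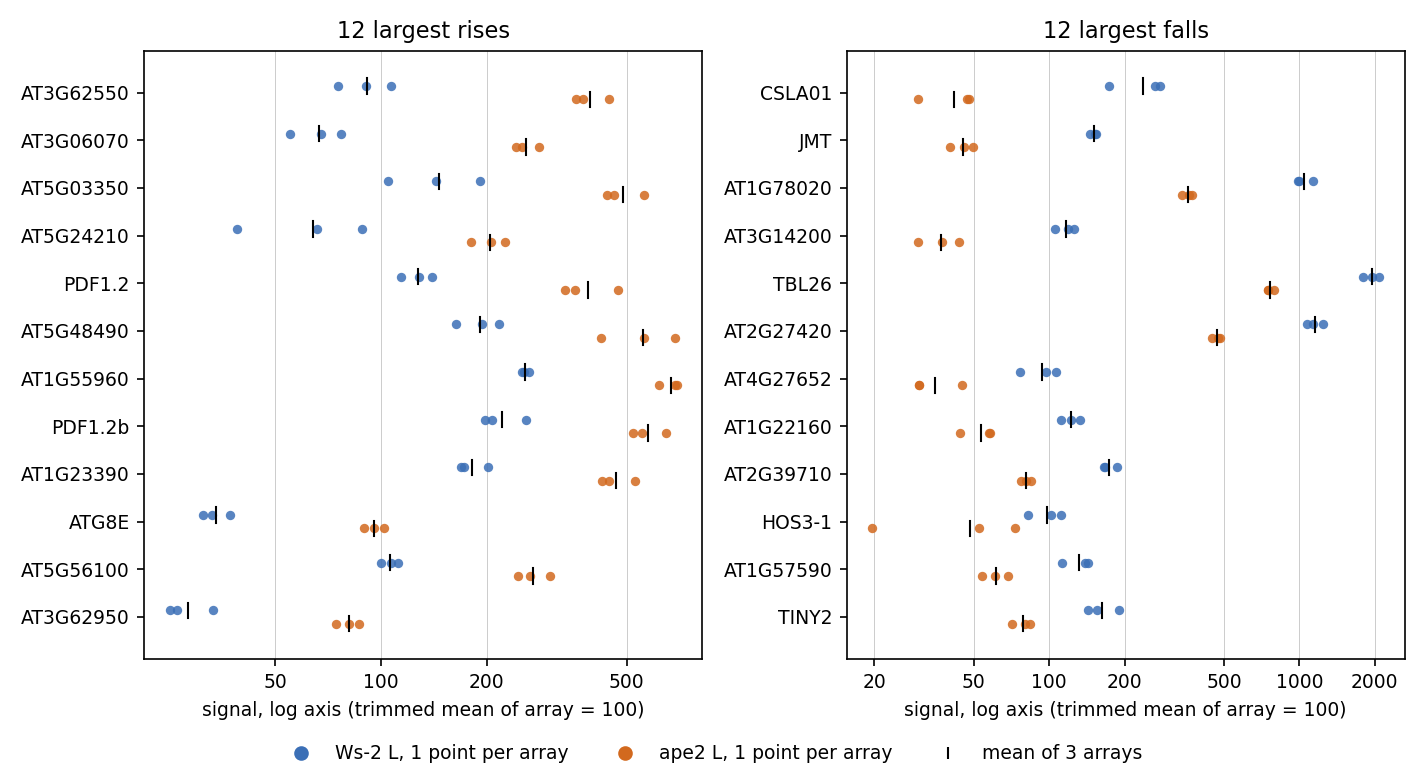
Signal on each of the 6 L arrays (log axis) for the 12 largest named rises and the 12 largest named falls, with a bar at the mean of 3 arrays. The genes were picked for Ws-2 and ape2 points that do not overlap, so every row is separate by choice. HOS3-1 and AT5G03350 show wide groups.

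Of 7 named genes that went from a mean signal under 20 in Ws-2 L to 40 or more in ape2 L or the reverse, the 6 with the largest change all rose. AT5G19120 had signals of 12.7, 22.8 and 10.5 in Ws-2 L and 75.5, 72.2 and 82.8 in ape2 L, with a log2 change of 1.81 ± 0.20 (adjusted p = 2.81e-05) that was 2.32 with an offset of 1 and 1.21 with an offset of 32. AT4G17610 had 8.7, 9.7 and 8.5 in Ws-2 L and 45.8, 32.1 and 52.7 in ape2 L, a change of 1.48 ± 0.24 (adjusted p = 0.000953). AT1G33420 and AT4G11900 rose from means of 17.0 ± 3.81 and 19.2 ± 6.23 to 50.6 ± 12.8 and 51.2 ± 2.88. For these dim genes the groups were separate, but the sizes depend on the offset. AT1G30820 and AT1G24140 were at 1.26 and 1.12. The call of AT1G30820 was lost on leaving out Ws-2 L 1 or ape2 L 1, 2 or 3 (adjusted p then up to 0.0831), and that of AT1G24140 was lost on leaving out Ws-2 L 2 (adjusted p then 0.0525).

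A list of genes that sugars repress or carbon starvation induces was tested for a small part of its members, most of which rose in ape2 L. Of the 25 loci listed for this group, 6 were tested, 4 rose, 0 fell and all 6 had positive changes, with a median of 0.50. AKINBETA1 (AT5G21170), a regulatory beta subunit of SnRK1, had signals of 38.0, 33.3 and 36.2 in Ws-2 L and 81.1, 73.0 and 64.7 in ape2 L. The ape2 arrays were all higher, and the change was 0.85 ± 0.11 (adjusted p = 0.000197). AT5G19120, described above, is the largest of the group. AT3G26510 and AT3G15450 gave 0.42 ± 0.11 and 0.40 ± 0.12. Their calls were less stable. The former gene dropped out on leaving out Ws-2 L 2 or 3 or ape2 L 1 or 2 (adjusted p then up to 0.0977), and the latter on leaving out any array other than ape2 L 1 or ape2 H 2 (adjusted p then up to 0.168). AT4G27450 and FDH, at 0.59 ± 0.19 and 0.20 ± 0.10, did not pass (adjusted p = 0.0639 and 0.25). Without 1 L array at a time, between 2 and 4 of the 6 were called higher. On a separate list of branched-chain amino acid breakdown, 4 genes were tested and 0 were called higher or lower. Of these, 2 had positive and 2 had negative changes, with a median of 0.01.

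The autophagy family was measured with 10 genes. All 10 had positive changes, 2 rose and 0 fell, and the median was 0.10. Besides ATG8E, its paralog ATG8F (AT4G16520) rose from 484, 455 and 483 in Ws-2 L to 650.4, 702 and 598 in ape2 L, by 0.44 ± 0.09 (adjusted p = 0.00638). The other members lay between 0.02 for APG8A and 0.36 for ATG8H, which did not pass (adjusted p = 0.174). The family's 2 calls were made without each L array in turn.

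Of 3 starch synthesis genes tested, 2 fell and 0 rose in ape2 L, with a median of -0.62. ADP-glucose pyrophosphorylase makes the sugar donor for starch, and APL3 (AT4G39210) and APL4 (AT2G21590) encode large subunits of it. APL3 had signals of 104, 80.4 and 88.9 in Ws-2 L and 50.9, 46.3 and 46.0 in ape2 L. The ranges were separate and the change was -0.80 ± 0.11 (adjusted p = 0.000169). APL4 is dimmer, at 27.1, 29.0 and 39.0 in Ws-2 L and 23.1, 12.6 and 16.4 in ape2 L, and its change of -0.62 ± 0.18 passed narrowly (adjusted p = 0.0436). Its call was lost on leaving out any array other than ape2 L 1 or Ws-2 H 3 (adjusted p then up to 0.182). SBE2.2, a starch branching enzyme, was at -0.22 ± 0.08 and did not pass (adjusted p = 0.0937). Of starch breakdown, PWD, which phosphorylates the granule surface, and DPE1, a plastid glucanotransferase, were at 0.12 ± 0.08 and 0.21 ± 0.12 (adjusted p = 0.459 and 0.327).

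Among 6 sugar transporters tested, 2 fell and 0 rose, with a median of -0.13. SWEET17 (AT4G15920), a fructose facilitator of the vacuole membrane, had 443, 445 and 421 in Ws-2 L and 315, 186 and 260.4 in ape2 L. The 3 Ws-2 arrays were close to each other while the ape2 arrays were spread, and all of these were lower (log2 change -0.79 ± 0.15, adjusted p = 0.00444). SAG29 (AT5G13170), another SWEET transporter, was dim, at 20.6, 25.6 and 20.8 in Ws-2 L and 6.4, 7.9 and 1.5 in ape2 L. Its change was -1.10 ± 0.23 (adjusted p = 0.0071), with -2.08 at an offset of 1 and -0.55 at 32. SWEET11, which loads sucrose toward the phloem, was at 0.04 ± 0.06, and the vacuolar sugar importers TMT1 and TMT2 were at -0.08 ± 0.08 and -0.17 ± 0.13. None of these 3 passed (adjusted p from 0.473 to 0.765). Of 14 SWEET genes tested, SWEET17 and SAG29 were the 2 that passed. Among 4 genes of sucrose synthesis and cleavage, AT2G35840 fell, at -0.33 ± 0.07 (adjusted p = 0.00877), a call lost on leaving out Ws-2 L 3 (adjusted p then 0.0507), while the sucrose phosphate synthase gene ATSPS4F was at 0.14 ± 0.08 (adjusted p = 0.345).

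UDP-glycosyltransferases attach sugars to small molecules. Of 26 tested, 6 fell and 2 rose, where 78 and 48 of the 1214 tested probe sets with a symbol did so. Over all genes, with or without a symbol, 3.93% fell and 4.32% rose. Negative changes were found for 20 of the 26 and for 4264 of the 8925 genes tested, and the median of the family was -0.20. Without 1 L array at a time, between 3 and 6 were called lower. UGT74B1 (AT1G24100), of glucosinolate synthesis, had 441, 393 and 417 in Ws-2 L and 266, 206 and 233 in ape2 L, a change of -0.81 ± 0.12 (adjusted p = 0.000409). UGT78D1 (AT1G30530), a flavonol rhamnosyltransferase, had 184, 134 and 177 and 103, 73.7 and 108 in the same order, a change of -0.74 ± 0.15 (adjusted p = 0.00406). UGT76E11 fell by 0.56 ± 0.10 (adjusted p = 0.00157). For these 3 genes no ape2 array reached the lowest Ws-2 array. UGT78D2, a flavonoid glucosyltransferase, was at -0.37 ± 0.09, lost on leaving out Ws-2 L 1 or 3 or ape2 L 2 (adjusted p then up to 0.0706). UGT71B1 and UGT71C4 were at -0.29 and -0.27, lost on leaving out Ws-2 L 1, 2 or 3 or ape2 L 2 or 3 (adjusted p then up to 0.0879) and on leaving out Ws-2 L 1, 2 or 3 or ape2 L 2 or 3 (adjusted p then up to 0.127). The members called higher were UGT72E1, a glucosyltransferase of lignin precursors, at 0.63 ± 0.16, lost on leaving out Ws-2 L 1 or 2 or ape2 L 2 (adjusted p then up to 0.0933), and UGT88A1 at 0.29 ± 0.08, lost on leaving out Ws-2 L 1 or 3 or ape2 L 1 or 3 (adjusted p then up to 0.13).

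On the flavonoid and anthocyanin list, 3 of 5 tested genes fell and 0 rose, with a median of -0.37. They were UGT78D1, UGT78D2 and AT1G06000, which had 139, 96.3 and 102 in Ws-2 L and 59.3, 61.1 and 75.4 in ape2 L, a change of -0.69 ± 0.14 (adjusted p = 0.00476). DFR, the anthocyanin enzyme dihydroflavonol reductase, was dim and at 0.34 ± 0.15 (adjusted p = 0.184). In the aldehyde dehydrogenase family all 8 genes tested had negative changes, with 2 lower, 0 higher and a median of -0.15. ALDH2C4 (AT3G24503), which oxidises phenylpropanoid aldehydes, had 829, 839 and 922 in Ws-2 L and 541, 712 and 636 in ape2 L, a change of -0.46 ± 0.10 (adjusted p = 0.00937). ALDH10A8 was at -0.35 ± 0.08, a call lost on leaving out Ws-2 L 1 or 2 (adjusted p then up to 0.0571).

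**Figure D3:**
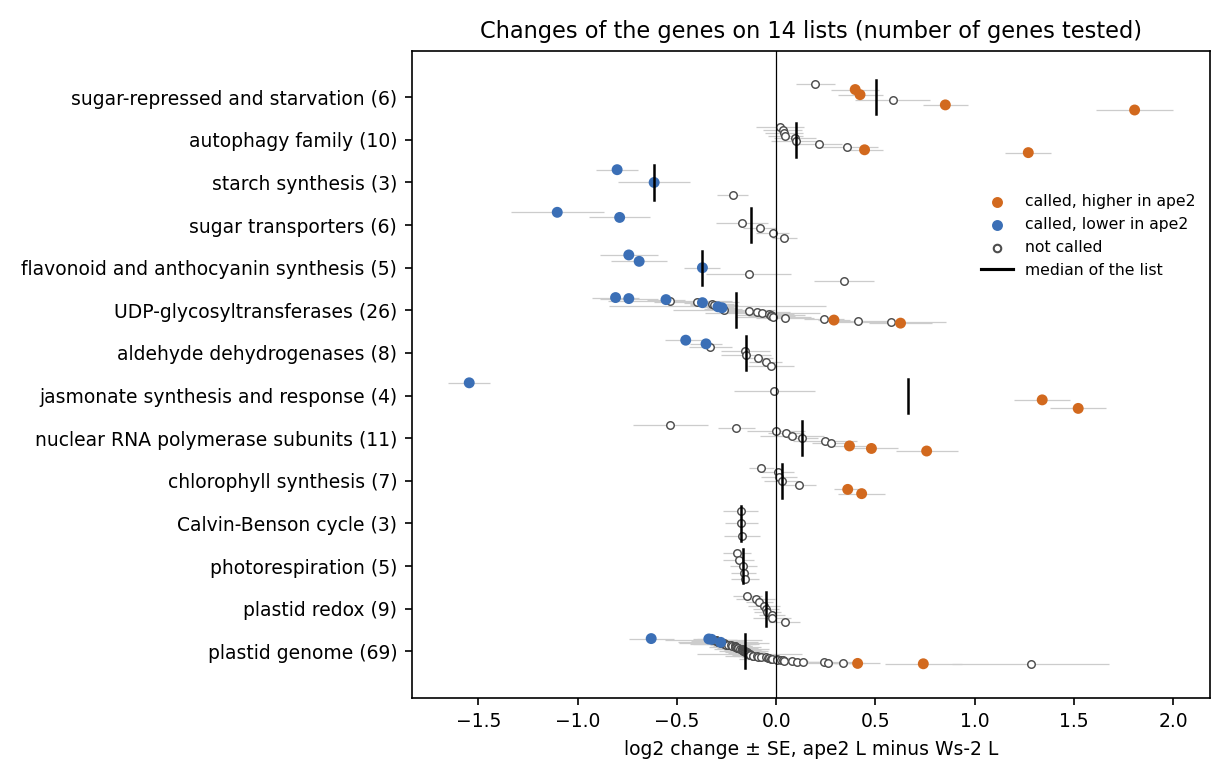
Log2 change with its SE for every tested gene on 14 lists (x axis, ape2 L minus Ws-2 L), with called genes filled and a bar at the median of each list. All 6 sugar-repressed genes and all 10 autophagy genes lie above 0, and the 3 Calvin-Benson cycle and 5 photorespiration genes lie below 0 without a call.

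Besides CSLA01 and TBL26, other cell wall genes, nearly all chosen after their values were seen, were called in both directions. XTH32 (AT2G36870), a xyloglucan endotransglucosylase/hydrolase that cuts and rejoins wall xyloglucan, had 1028, 1105 and 1209 in Ws-2 L and 765, 676 and 769.7 in ape2 L, a change of -0.59 ± 0.08 (adjusted p = 0.000205). GH9C2 (AT1G64390), an endoglucanase of family GH9, had 776, 787 and 832 and 519, 455 and 543, a change of -0.65 ± 0.09 (adjusted p = 0.000175). Both were lower on every ape2 array. Most tested members of these families were not called. In the TBL family 1 of 19 fell, in GH9 1 of 7 and in the cellulose synthase family 2 of 7, and 0 rose. The medians were -0.08, 0.04 and -0.08. On a list of xyloglucan modifying genes without EXGT-A3, 1 of 4 fell and 0 rose, with a median of 0.06. EXGT-A3 (AT2G01850), of the same enzyme family as XTH32, moved the other way, from 174, 145 and 157 in Ws-2 L to 248, 234 and 231 in ape2 L, a change of 0.56 ± 0.09 (adjusted p = 0.000921). EXPA8, an expansin that loosens walls, rose from 145 ± 15.3 to 239 ± 15.2, by 0.68 ± 0.13 (adjusted p = 0.00292), and was the only 1 of 12 expansins tested to pass. Smaller falls with less stable calls were those of COB, a glycolipid-anchored protein that orients cellulose, at -0.27 ± 0.07, lost on leaving out Ws-2 L 1, 2 or 3 or ape2 L 1, 2 or 3 (adjusted p then up to 0.121), and of CSLC5, of the family that makes the xyloglucan backbone, at -0.31 ± 0.08, lost on leaving out Ws-2 L 2 or ape2 L 2 or 3 (adjusted p then up to 0.115).

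At the cell surface and cytoskeleton, TET3 (AT3G45600), a tetraspanin, fell from 452, 427 and 426 in Ws-2 L to 352, 283 and 342 in ape2 L, a change of -0.41 ± 0.09 (adjusted p = 0.00585). Its paralog TET2 was at -0.47 ± 0.12, lost on leaving out Ws-2 L 1 or 3 or ape2 L 2 (adjusted p then up to 0.0929), and these were the 2 of 10 tetraspanins that passed. SP1L4, of the SPIRAL1-like microtubule proteins, fell by 0.73 ± 0.13 (adjusted p = 0.00189). In the IQD family, whose proteins bind calmodulin and microtubules, 3 of 9 tested fell and 0 rose, with a median of -0.22. They were IQD22 at -0.89, iqd21 at -0.44 and IQD23 at -0.34. All 3 calls were lost on leaving out any L array but ape2 L 3 (adjusted p then up to 0.128), and between 0 and 4 members were called lower without 1 L array at a time.

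Regulators of transcription, most of them chosen after their values were seen, were called in both directions. HYH (AT3G17609), a bZIP factor of the light response that is related to HY5, had signals of 334, 303 and 355 in Ws-2 L and 193, 203 and 217 in ape2 L. The lowest Ws-2 array was well above the highest ape2 array, and the change was -0.67 ± 0.09 (adjusted p = 0.000247). MYC4 (AT4G17880), a bHLH factor of the jasmonate response, had 251, 192 and 221 and 162, 125 and 139.5 in the same order, a change of -0.60 ± 0.10 (adjusted p = 0.00137). HAT2 (AT5G47370), a homeodomain leucine zipper factor induced by auxin, had 108, 72.7 and 83.2 and 41.8, 43.4 and 52.4, a change of -0.80 ± 0.16 (adjusted p = 0.00419). The spread of HAT2 was larger in Ws-2 than in ape2. BIM1, a bHLH partner of the brassinosteroid factor BES1, fell by 0.55 ± 0.10 (adjusted p = 0.0027). LHW, a bHLH factor of vascular tissue, and TCP15, a regulator of leaf growth, changed by -0.69 ± 0.16 (adjusted p = 0.0111) and -0.34 ± 0.08 (adjusted p = 0.0141). Of 9 bZIP factors tested, 2 were called lower and 0 higher, with a median of 0.08. Besides HYH this was bZIP44, at -0.68 ± 0.20, a call lost on leaving out any array other than Ws-2 L 1, ape2 L 1 or 3 or ape2 H 2 (adjusted p then up to 0.167), and its change was -0.42 without ape2 L 2. It was also lost in the fit to the 6 L arrays alone.

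Among those called higher, RR16 (AT2G40670), a type-A response regulator of cytokinin signalling, had 51.2, 49.1 and 51.6 in Ws-2 L and 121, 99.4 and 104 in ape2 L, a change of 0.96 ± 0.12 (adjusted p = 0.000106). CCL (AT3G26740), a CCR-like gene on the list of clock genes, had 336, 285 and 359 and 713, 691 and 644, a change of 1.05 ± 0.11 (adjusted p = 1.97e-05). For both genes every ape2 array was far above every Ws-2 array. GI, an evening gene of the clock, was at -0.36 ± 0.08 (adjusted p = 0.0137), a call lost on leaving out Ws-2 L 1 (adjusted p then 0.0556). Of 4 genes on the list of bHLH and PIF factors, 1 was called higher and 0 lower, with a median of 0.02. It was bHLH121, at 0.37 ± 0.11, lost on leaving out any array other than Ws-2 L 3 or ape2 H 1 or 3 (adjusted p then up to 0.15). DI19, another transcription factor, was at 0.33 ± 0.10, lost on leaving out any array other than Ws-2 H 1 or 2 or ape2 H 2 (adjusted p then up to 0.169).

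Single genes of chromatin, replication and transcription, some chosen after their values were seen, were called in both directions. Of 6 histone genes tested, HTB2 was called higher and HTB11 lower, at 0.71 ± 0.21 and -0.67 ± 0.18, with a median of 0.09. The call of HTB2 was lost on leaving out Ws-2 L 1 or 2, ape2 L 1 or 2 or Ws-2 H 2 or 3 (adjusted p then up to 0.166), and that of HTB11 on leaving out Ws-2 L 2 or 3 or ape2 L 1 or 2 (adjusted p then up to 0.111). ASF1B (AT5G38110), a histone chaperone, had 33.7, 35 and 38.6 in Ws-2 L and 67.3, 57.9 and 67.7 in ape2 L, a change of 0.70 ± 0.14 (adjusted p = 0.00448). Of 11 subunits of the nuclear RNA polymerases tested, 3 rose and 0 fell, with a median of 0.13. Between 1 and 3 were called higher without 1 L array at a time, and the 6 L arrays alone gave 1 higher and 1 lower. NRPC2 (AT5G45140), of RNA polymerase III, had 33.3, 35.1 and 29.1 in Ws-2 L and 56.0, 64.9 and 64.5 in ape2 L, a change of 0.76 ± 0.16 (adjusted p = 0.00552). Both genes were higher on every ape2 array. NRPA1, the largest subunit of RNA polymerase I, was at 0.48 ± 0.13, lost on leaving out Ws-2 L 1, 2 or 3 or ape2 L 1 or 3 (adjusted p then up to 0.138), and NRPB9B at 0.37 ± 0.11, lost on leaving out Ws-2 L 2 or 3 or ape2 L 1, 2 or 3 (adjusted p then up to 0.153). CHR17, a chromatin remodeller, was at 0.61 ± 0.14, lost on leaving out Ws-2 L 2 or ape2 L 3 (adjusted p then up to 0.0534). ICU2, the catalytic subunit of DNA polymerase alpha, was at 0.52 ± 0.13, lost on leaving out Ws-2 L 1 or 3 or ape2 L 2 or 3 (adjusted p then up to 0.0771), and PRL, a subunit of the replicative helicase, at 0.40 ± 0.10, lost on leaving out Ws-2 L 3 or ape2 L 1 or 3 (adjusted p then up to 0.105).

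Single genes of lipid, amino acid and nitrogen metabolism, most of them chosen after their values were seen, were called in both directions. SDP1 (AT5G04040), a lipase that starts the breakdown of storage oil, had 34.4, 35.2 and 31.8 in Ws-2 L and 72.9, 60 and 62.2 in ape2 L, a change of 0.77 ± 0.11 (adjusted p = 0.000312). AAPT2 (AT3G25585), of phospholipid synthesis, had 306, 331 and 254 and 156, 188 and 202, a change of -0.67 ± 0.10 (adjusted p = 0.000622). SDP1 was higher and AAPT2 lower on each ape2 array. MGL, the methionine gamma-lyase, fell by 0.52 ± 0.12 (adjusted p = 0.00903), and ARD4, an acireductone dioxygenase of methionine salvage, went from 1612 ± 153 to 1185 ± 154 (SD, n = 3), a change of -0.44 ± 0.10 (adjusted p = 0.00829). AAH, the allantoate amidohydrolase of purine breakdown, fell by 0.40 ± 0.08 (adjusted p = 0.00661). AT3G21670, which RefSeq also lists as NPF6.4 of the nitrate and peptide transporter family, is a bright transcript with 2093, 2095 and 2471 in Ws-2 L and 1425, 1369.5 and 1540.5 in ape2 L, a change of -0.61 ± 0.08 (adjusted p = 0.000205).

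Further single genes were chosen after their values were seen. Fes1B (AT3G53800), a nucleotide exchange factor of HSP70 chaperones, rose from 41.8, 36.7 and 34.7 in Ws-2 L to 96.6, 72.8 and 71.1 in ape2 L, by 0.91 ± 0.13 (adjusted p = 0.00023). UBC19 (AT3G20060), a ubiquitin-conjugating enzyme, rose from 165, 153 and 171 to 280.1, 228 and 260.0, by 0.62 ± 0.09 (adjusted p = 0.000522). It was the only 1 of 11 ubiquitin-conjugating genes tested to pass. Among single genes of transport, respiration and signalling, MTP11, a manganese transporter, was at -0.46 ± 0.08 (adjusted p = 0.000921), CYTC-2, a cytochrome c, at -0.47 ± 0.09 (adjusted p = 0.0046) and SAT32 at -0.76 ± 0.09 (adjusted p = 4.13e-05). NQR, an NADPH:quinone oxidoreductase, rose by 0.35 ± 0.07 (adjusted p = 0.00456). The kinase gene PTI1-4 (AT2G47060), whose signals were 213, 201 and 212 in Ws-2 L and 109, 147 and 115 in ape2 L, changed by -0.72 ± 0.11 (adjusted p = 0.000638). Of 20 serine carboxypeptidase-like genes, scpl35 was higher, at 0.53 ± 0.10 (adjusted p = 0.00272), and scpl46 was lower, at -0.32 ± 0.08, a call lost on leaving out Ws-2 L 1 or 3 or ape2 L 1 or 3 (adjusted p then up to 0.0757). CW14, Phox3 and ATB2 were lower, at -0.69 ± 0.14, -0.45 ± 0.09 and -0.34 ± 0.07.

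In the cytochrome P450 family, whose enzymes oxidise small molecules, 2 of 17 tested genes fell and 1 rose, with a median of 0.04. CYP71B26 (AT3G26290) had 98.2, 105 and 105 in Ws-2 L and 55.6, 60.4 and 66.1 in ape2 L, a change of -0.68 ± 0.08 (adjusted p = 0.000106). CYP71B28 was at -0.31 ± 0.09, lost on leaving out any array other than ape2 L 2, Ws-2 H 1 or 2 or ape2 H 2 (adjusted p then up to 0.174), and CYP71B36 at 0.63 ± 0.15, lost on leaving out Ws-2 L 2 or ape2 L 2 (adjusted p then up to 0.0587). Of 4 genes of jasmonate synthesis and response, PDF1.2 and PDF1.2b rose and JMT fell, as described above, while the thionin gene THI2.1 was at -0.01 ± 0.20 (adjusted p = 0.984). In the RALFL family of secreted peptides all 5 genes tested had negative changes, with a median of -0.33. Only RALFL34 passed, at -0.34 ± 0.09 (adjusted p = 0.0239), and its call was lost on leaving out Ws-2 L 2 or 3 or ape2 L 1 or 2 (adjusted p then up to 0.108). Of 10 glutathione S-transferases and 4 WRKY factors tested, 0 were called in limma at this threshold, with medians of 0.01 and -0.06.

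In chlorophyll synthesis 2 of 7 genes rose and 0 fell, with a median of 0.03. PORB (AT4G27440), a light-dependent protochlorophyllide reductase, had 626, 550.0 and 553 in Ws-2 L and 729, 728 and 767 in ape2 L, a change of 0.36 ± 0.07 (adjusted p = 0.00386). CHLI2, a subunit of magnesium chelatase, was at 0.43 ± 0.12, lost on leaving out Ws-2 L 1, 2 or 3 or ape2 L 1 or 3 (adjusted p then up to 0.125). LIL3:2 (AT5G47110), a light-harvesting-like protein that anchors enzymes of this pathway, moved the other way, with 1944, 2069.8 and 2154 in Ws-2 L and 1609.7, 1707 and 1601 in ape2 L, a change of -0.32 ± 0.06 (adjusted p = 0.00406). PAC, which is needed for chloroplast development, rose by 0.56 ± 0.10 (adjusted p = 0.0026).

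Nuclear genes of photosynthesis had list medians below 0 whose size or direction depended on the scaling. Of 3 Calvin-Benson cycle, 5 photorespiration, 3 antenna and 9 plastid redox genes tested, 0 were called in limma at this threshold. All 3 Calvin-Benson cycle genes and all 5 photorespiration genes had negative changes, from -0.20 for AT1G80380 to -0.16 for LrgB, with medians of -0.18 and -0.17. For RCA, the activase of Rubisco, the signals were 4096, 4109.8 and 4889 in Ws-2 L and 3645, 4184 and 3766 in ape2 L (log2 change -0.17 ± 0.09, adjusted p = 0.285). For HPR, the hydroxypyruvate reductase of photorespiration, they were 3489.9, 3484 and 3988 and 3131, 3345 and 3118 (-0.19 ± 0.08, adjusted p = 0.147). With quantile normalization these medians were -0.01 and -0.07. The medians of the antenna genes (-0.07), the plastid redox genes (-0.05) and 7 nuclear photosystem subunits (-0.07) turned to 0.01, 0.01 and 0.05 under that scaling, with 1 antenna gene and 1 photosystem subunit called higher. Without 1 L array at a time the Calvin-Benson cycle and photorespiration medians lay between -0.23 and -0.09 and between -0.22 and -0.13. GR, a glutathione reductase, was the only 1 of 4 antioxidant genes called, at -0.25 ± 0.07, lost on leaving out Ws-2 L 1 or 3 or ape2 L 1 or 3 (adjusted p then up to 0.0905).

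Of 69 plastid genome genes tested, 4 fell and 2 rose, a share of 8.7% that lies near those of the nuclear chromosomes (7.59% to 8.75%). Negative changes were found for 55 of the 69, against 4264 of all 8925 genes, and the median was -0.16. With quantile normalization the median was -0.07, with 4 called higher and 4 lower. Between 2 and 7 were called lower and between 0 and 2 higher without 1 L array at a time. The gene rps16, of the plastid ribosome, had 536, 520.3 and 571 in Ws-2 L and 283, 396 and 372 in ape2 L, a change of -0.63 ± 0.11 (adjusted p = 0.00204). It was the only 1 of the 6 called genes to keep its call in every alternative. The ATP synthase gene atpF was at -0.34 ± 0.08, lost on leaving out Ws-2 L 3 or ape2 L 1 (adjusted p then up to 0.0762), and psbT of photosystem II at -0.33 ± 0.07, lost on leaving out Ws-2 L 2 (adjusted p then 0.0522). The gene petD of the cytochrome b6f complex rose, with 274, 318 and 258 in Ws-2 L and 456, 439.9 and 548 in ape2 L, by 0.74 ± 0.20, lost on leaving out any array other than Ws-2 L 2, Ws-2 H 1 or 2 or ape2 H 2 or 3 (adjusted p then up to 0.118). The gene psbE of photosystem II was at 0.41 ± 0.11, with overlapping ranges, lost on leaving out Ws-2 L 1 or 3 or ape2 L 2 or 3 (adjusted p then up to 0.147). Of 12 tested genes of the mitochondrial genome, 1 fell and 0 rose, with a median of 0.01. It was ccb382, which takes part in the assembly of cytochrome c, at -0.38 ± 0.08 (adjusted p = 0.0054). The probe set 257325_at of the gene nad1 is not counted among these and was called higher, at 1.21 (adjusted p = 0.014). This call was lost on leaving out Ws-2 L 3 or ape2 L 1 or 2 (adjusted p then up to 0.0702). Its change was 1.82 with an offset of 1 and 0.70 with an offset of 32.

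The share of rises and falls varied with brightness. Among tested probe sets with a mean signal under 30, 61 were higher and 24 lower, and 2.54% were called. Between 120 and 300, 245 were higher and 276 lower, and at 300 or more, 134 were higher and 253 lower, with 17.7% and 17.2% called. Higher calls thus made up 71.8% of the calls in the dimmest class and 34.6% in the brightest. With quantile normalization these shares were 57.8% and 45.1%, so the lean of bright transcripts toward lower signals depended on the scaling. The median change over all probe sets of the brightest class was -0.041, against 0.045 in the dimmest. The median signal of an array was 36.6 to 39.0 in Ws-2 L and 38.4 to 40.4 in ape2 L, and its part in this lean was not tested.

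**Figure D4:**
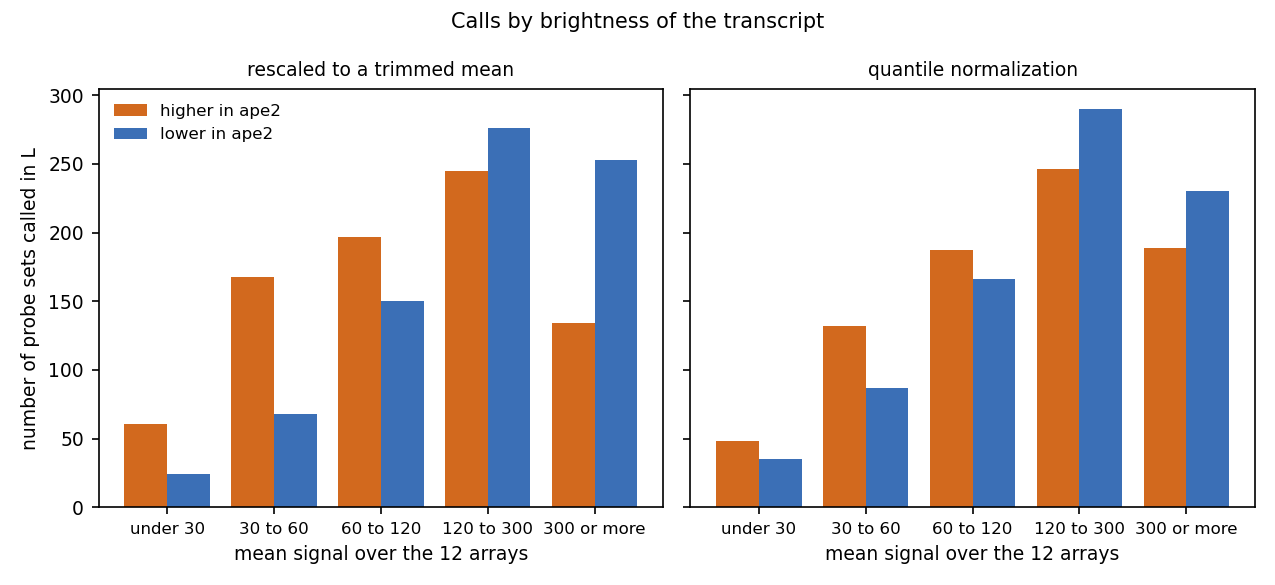
Number of probe sets called higher or lower in ape2 L (y axis) in 5 classes of mean signal (x axis), with arrays rescaled to a trimmed mean (left) or quantile normalized (right). On the left 134 rises face 253 falls at 300 or more, and on the right the 2 directions are closer in that class.

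The changes of the brightest called genes were small. Of those that rose, AT1G49750 had 1382, 1196 and 1227 in Ws-2 L and 1692, 1760.4 and 1745 in ape2 L, a change of 0.45 ± 0.07 (adjusted p = 0.00062). AT2G42690 and CP5 rose by 0.40 ± 0.08 and 0.35 ± 0.06. The brightest genes in each direction were also picked for L groups that do not overlap. AT3G04840, AT3G22210 and AT5G18600 were at 0.21, 0.37 and 0.29. Their calls were lost on leaving out Ws-2 L 1 or 2, ape2 L 2 or 3 or Ws-2 H 3 (adjusted p then up to 0.137), on leaving out Ws-2 L 1 or 2 or ape2 L 3 (adjusted p then up to 0.11) and on leaving out Ws-2 L 1 or ape2 L 3 (adjusted p then up to 0.0647). Of the brightest falls, SAMDC, of polyamine synthesis, was at -0.24, lost on leaving out any array other than Ws-2 L 1, ape2 L 2 or Ws-2 H 1 (adjusted p then up to 0.172), and cICDH, the cytosolic isocitrate dehydrogenase, at -0.24, lost on leaving out Ws-2 L 2 or 3 or ape2 L 1 or 3 (adjusted p then up to 0.108). The plastid gene cemA was at -0.28, lost on leaving out Ws-2 L 2 or 3 or ape2 L 1 or 3 (adjusted p then up to 0.146).

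Markers of other cell types were examined because a leaf holds several. The mesophyll markers RCA and LHCB4.1 were among the brightest transcripts, with means of 4868 ± 499 in Ws-2 L and 4340.5 ± 188 in ape2 L for LHCB4.1. The guard cell gene FMA, the root hair gene EXPA7, the dividing cell gene AUR1 and the trichome gene TRY were at 0.08 ± 0.14, 0.04 ± 0.22, 0.09 ± 0.11 and -0.18 ± 0.11, and none passed (adjusted p from 0.335 to 0.947). The EXPA7 signal stayed near the filter level, at 20.6 ± 5.45 and 21.3 ± 5.03. In whole leaves, fewer cells of a type and less RNA per cell cannot be told apart. No marker of phloem, epidermis or seeds on the lists has a probe set named here.

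The 2 genotypes were also compared in condition H, on 6 other arrays. Whether L and H arrays of the same number share plants or a batch is not in the labels. The 2 comparisons may therefore not be independent. Within groups, ape2 L 2 and ape2 H 2 both stood far out on the same side of the leading component (20.4 and 17.0). In H, 1693 probe sets were called (10.5%). Of the L calls, 886 were also called in H, which is 56.2% of the L calls and 52.3% of the H calls, and 883 of them in the same direction. A further count does not use the H threshold. Of the 1576 L calls, 94.9% had the same sign in H, against 67.3% of all tested probe sets. Across probe sets, which are not independent replicates, the 2 log2 changes correlated with a Pearson r of 0.626 over all 16121 and 0.880 over the L calls. The median L change of the rises was 0.54 and their median H change 0.40, and the medians of the falls were -0.46 and -0.38.

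All 12 largest named rises in L were called higher in H too, and 10 of them were larger there, while 2 of the 12 largest falls were larger in H. AT1G23390, for example, rose by 1.31 ± 0.15 in L and by 2.16 ± 0.15 in H. ATG8E gave 1.27 ± 0.12 in L and 1.96 ± 0.12 in H. PDF1.2 was an exception in size, at 1.52 ± 0.14 in L and 0.61 ± 0.14 in H (interaction adjusted p = 0.159). Of the 12 largest named falls, all had negative changes in H and 9 were called there. CSLA01 and JMT had H changes of -2.23 ± 0.19 and -1.42 ± 0.11. AT4G27652 and AT1G57590 were at -0.27 ± 0.14 and -0.10 ± 0.13 in H and did not pass there (adjusted p = 0.294 and 0.709).

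**Figure D5:**
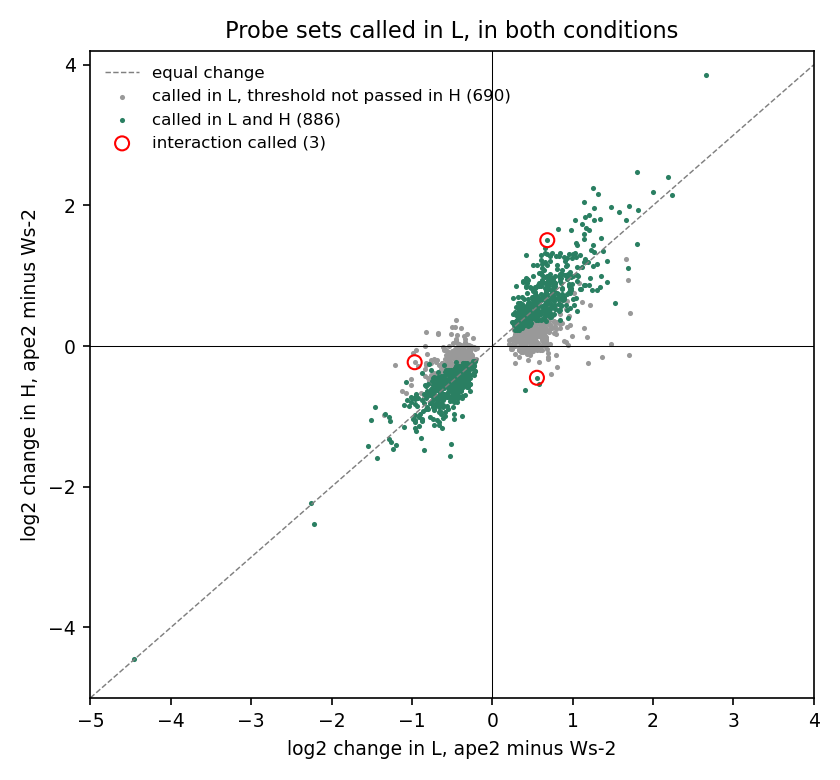
Log2 change of ape2 over Ws-2 in L (x axis) and in H (y axis) for the 1576 probe sets called in L. Most points lie in the quadrants of equal sign, near the dashed line of equal change, and 3 probe sets with a called interaction are circled.

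A difference between the conditions was tested directly by the interaction. It was called for 3 probe sets (0.0186% of those tested), all without a gene named, while 1235 had an unadjusted p under 0.05. Leaving out Ws-2 L 2 or 3 gave 0 interaction calls (1167 and 1037 at an unadjusted p under 0.05 in limma), and leaving out Ws-2 H 1 gave 7. For no named gene were the L and H changes shown to differ. Some named genes were called in L and had values near 0 in H. AT4G17610 was at 1.48 ± 0.24 in L and 0.03 ± 0.24 in H, with an interaction of -1.45 ± 0.34 (adjusted p = 0.21). ASF1B was at 0.70 ± 0.14 and -0.10 ± 0.14 (-0.80 ± 0.20, adjusted p = 0.26). ARLA1C (AT3G49870), an ADP-ribosylation factor-like protein, went from 238, 355 and 359 to 128, 173 and 174 in L, a change of -0.95 ± 0.18, and was at -0.05 ± 0.18 in H (0.90 ± 0.25, adjusted p = 0.362). ARD4 was at -0.44 ± 0.10 and -0.04 ± 0.10 (0.40 ± 0.14, adjusted p = 0.478).

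Called genes were found on every nuclear chromosome. The 801 called probe sets without a named gene and the 32 with several were not placed. Shares of whole chromosomes do not show how calls lie within a chromosome. Neighbours here are the nearest tested genes, so genes without a named probe set between them are skipped. Among genes with a probe set tested, the share called was 7.59% on chromosome 1, 8.65% on chromosome 2, 8.44% on chromosome 3, 7.99% on chromosome 4 and 8.75% on chromosome 5. The only run of 3 or more neighbouring tested genes called in the same direction lay on chromosome 5 and held AT5G18600, CHR17 and AT5G18630, all higher. CHR17 lost its call on leaving out Ws-2 L 2 or ape2 L 3 (adjusted p then up to 0.0534), and AT5G18600 on leaving out Ws-2 L 1 or ape2 L 3 (adjusted p then up to 0.0647).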

How the data were processed

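RNA of 12 leaf samples was measured on 12 arrays, 3 for each of Ws-2 L, Ws-2 H, ape2 L and ape2 H. The deposited values are linear intensity values (signals) made with MAS5 per the submitters' processing notes, already scaled by the authors to a trimmed mean of 100.01 on every array. The labels name neither the labelling protocol nor the version of MAS5.

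Of the 22810 probe sets, 64 controls were removed. Each array was then rescaled to a trimmed mean of 100 (trim 2%), 10 was added, and log2 was taken. Probe sets with a signal of at least 20 on at least 3 arrays were kept, which left 16121 and removed 6625. The 4 group means of the 12 arrays were estimated with limma 3.58.1 under R 4.3.3 (lmFit, and eBayes with an intensity trend and robust prior). Tests were two-sided, with Benjamini-Hochberg adjustment over all probe sets tested and a threshold of 0.05. SD values are over 3 arrays of linear signal, and SE values belong to the log2 change. The number of arrays limits the precision. The fit was tested on simulated data with known changes.

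Genes were named through the array annotation, in which 13513 probe sets have 1 gene, 503 have several and 8730 have none. Of the single genes, 13484 matched the RefSeq table of assembly TAIR10.1, and 1551 of these have a symbol. Named genes are the called single-gene probe sets with the 12 largest rises and the 12 largest falls with groups that do not overlap and a mean signal of at least 20 in both groups, the 6 brightest calls in each direction, up to 4 called members of each list with at least 2, the 2 largest unnamed changes in each direction, and the 6 largest changes from a mean under 20 to one of 40 or more. By this rule 86 probe sets were named, and 80 more, nearly all of them called genes with a symbol, were added after their values were seen. The members and lists were chosen with earlier results of these data known. Promoter motifs were not analysed here.

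The alternatives were other offsets, filters and scalings, a constant prior, array weights, a replicate block, a fit to the 6 L arrays alone, and leaving out each array in turn. No 2 arrays were duplicates, since the largest share of equal values between any pair was 1.451%.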

Additional observations from a re-analysis of the deposited data

Results flagged for a closer look

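The difference between the genotypes was itself different in L and H for 3 probe sets by the interaction term of the limma fit, none of which has a gene named here. For 253971_at the rise was larger in H than in L, with log2 changes of 1.51 ± 0.08 and 0.68 ± 0.08 and an interaction of 0.82 (adjusted p = 0.0155). For 260126_at the directions were opposite, with 0.56 ± 0.10 in L and -0.45 ± 0.10 in H and an interaction of -1.01 (adjusted p = 0.0155). For 245306_at the fall was larger in L, at -0.97 ± 0.07 against -0.23 ± 0.07, with an interaction of 0.74 (adjusted p = 0.0177). On leaving out Ws-2 L 2 or 3 the interaction gave 0 calls in limma, with 1167 and 1037 at an unadjusted p under 0.05.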

How the results depend on the processing

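The number of calls was between 1210 and 1621 under other offsets, filters, scalings, priors, weights and with the 6 L arrays alone, against 1576 in the report. Leaving out each array in turn gave 1030 to 1601 calls, with 523 to 818 higher and 492 to 783 lower. The lowest totals came without Ws-2 L 2 (1030) and without Ws-2 L 3 (1046), with 523 higher calls without Ws-2 L 3 and 492 lower calls without Ws-2 L 2. The interaction gave 3 calls in the report, 0 with a constant prior (1202 at an unadjusted p under 0.05), 10 with array weights and 0 to 7 when an array was left out, with 0 without Ws-2 L 2 or Ws-2 L 3. The cause was not tested. No called probe set changed sign under any of the 22 alternatives that tested it, and 757 of the 1576 calls were made under all that tested them. A stricter filter removed some dim probe sets, which were counted as kept there. Of the 166 probe sets named by the rule or added for their symbol, 165 were called. Of these, 86 were called under all alternatives that tested them. AT5G17630, which was not called, had -0.006 without Ws-2 L 3 and -0.011 without ape2 L 1, and ranged from -0.011 to 0.08 when an array was left out. With the replicate number as a block, 1476 probe sets were called (742 higher and 734 lower), and the interaction gave 2. The residuals of same-numbered Ws-2 L and ape2 L arrays correlated at -0.073, -0.084 and 0.035, so the numbers showed no pairing of the genotypes in L. Pairing of L with H arrays within a genotype was not tested. On the leading component within groups, ape2 1, 2 and 3 were at -12.4, 20.4 and -8.0 in L and at -6.25, 17.0 and -10.8 in H. Those of Ws-2 were at 5.3, -4.0 and -1.4 in L and at 12.4, -11.6 and -0.8 in H. Signals near the filter level limit what can be seen of dim transcripts, whose median SE was 0.199 under a signal of 30 and 0.082 at 300 or more.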
